A study of Homo sapiens with 4 samples.

Results

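The AP-1 transcription factors described here are FOS, FOSB, FOSL1, FOSL2, JUN, JUNB, JUND, ATF3 and BATF3. They were chosen by gene name and not by their values, as 9 of the 60544 genes of a count table. Earlier results of these data were known at that time. The table comes from poly(A) RNA of the PC3 cell line, derived from a human prostate cancer, sequenced in 4 libraries. The control cells carried the label shNC and the METTL3 knockdown cells the label sh812, with 2 libraries of each. METTL3 is the enzyme that writes most N6-methyladenosine (m6A) on messenger RNA. The labels name 1 knockdown construct and do not say whether the cells were a pool or a clone, or whether replicates were separate cultures. P-values therefore measure only the spread between these libraries, which may be technical.

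AP-1 is a family of dimeric transcription factors whose subunits pair through a leucine zipper and touch DNA through an adjoining basic region. JUN proteins can pair with each other or with a FOS protein, whereas FOS proteins need a JUN-type partner. ATF3 and BATF3 belong to the same superfamily and often act as repressors or as partners of JUN proteins. FOS, FOSB, JUN and JUNB are classic immediate early genes, switched on within minutes of growth factor or stress signals. FOSL1, whose product is also called FRA-1, is known in carcinoma cells for its link to invasion.

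Depth ranged from 31450648 to 37041330 counts per library. Counts are per bulk culture, in which fewer cells of a type and less RNA per cell cannot be told apart. METTL3 had 44.3 and 43.6 CPM (counts scaled to library size) in the shNC libraries and 7.66 and 8.75 CPM in the sh812 libraries. Its mean in sh812 was 18.7% of that in shNC, a log2 fold change of -2.42 ± 0.11 (SE, edgeR adjusted p = 5.54e-14). Of 16802 genes tested, 912 were called higher and 910 lower in sh812 at an adjusted p under 0.05. Scaling by library size alone put the median over all genes at -0.05 (log2) and the calls at 561 and 1328. The number of genes called in either direction was 587 without sh812 replicate 1, 682 without sh812 replicate 2 and 3252 without shNC replicate 2. KRT8, KRT18, EPCAM, CD44 and VIM, taken as markers of the PC3 line, lay between 69.3 (EPCAM) and 640.5 CPM (VIM). Of 10 markers of other cell types, 7 were below 1 CPM in every library, and PECAM1, COL1A1 and COL3A1 were above it. The summed level of 4 luminal androgen-response markers, among which KLK3 was at 0, was 28.8 and 30.2 CPM in shNC and 11.5 and 13.9 CPM in sh812. Their part in the AP-1 values was not tested.

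In these cells the AP-1 transcripts were mostly FOSL1, and none of the 9 genes was called between the groups. FOSL1 held 75.8% to 76.9% of the summed AP-1 level per length in each library, and the FOS, FOSB and BATF3 genes together held 0.109% to 0.15%. All 9 genes passed the low-count filter. Of them, 0 were called higher and 0 lower in edgeR, against a background of 10.8% of all genes tested (5.43% higher and 5.42% lower). At an unadjusted p under 0.05 the count was also 0 of 9, against 24.8% of all genes tested. limma-voom called 0 of 9, and DESeq2 called 0 of the 6 to which it gave an adjusted p. Their median log2 fold change was -0.04, beside -0.01 for all genes tested. The sh812 libraries lay wholly to one side of the shNC libraries in 3 of the 9 genes, an arrangement seen in 53.6% of the genes tested.

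**Figure D1:**
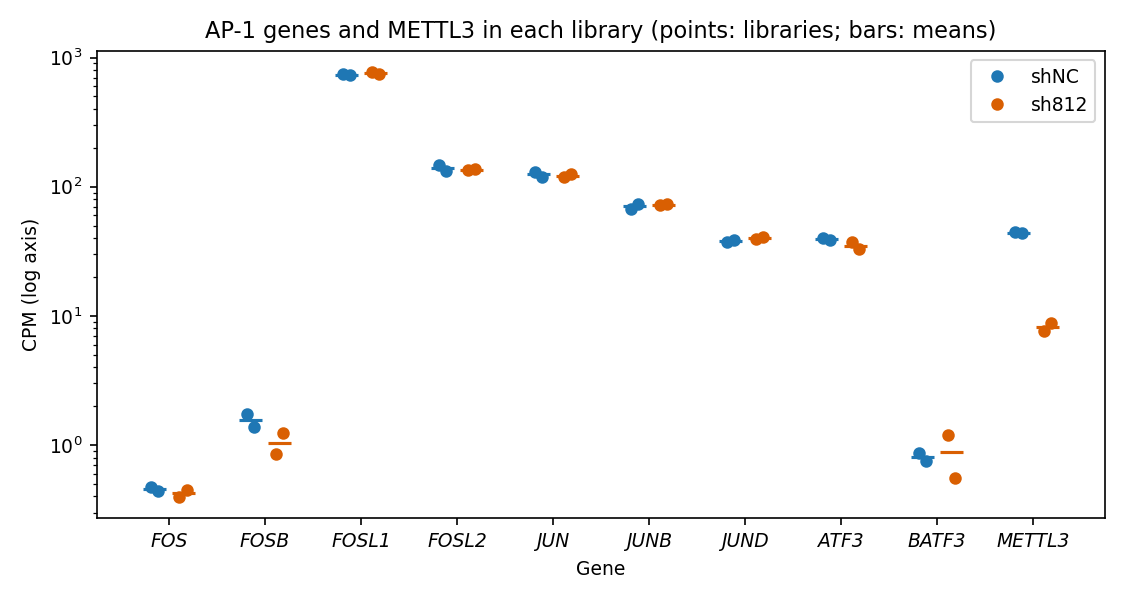
CPM (counts scaled to library size, log axis) of the 9 AP-1 genes and METTL3, with a point per library and a bar at each group mean. FOSL1 lies between 731 and 773 CPM in all 4 libraries and FOS between 0.399 and 0.475 CPM, while METTL3 is the gene whose groups stand far apart.

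Levels of different genes were compared per length, as TPM, computed here by dividing counts by merged exon length and scaling each library to the same total. The mean over the 4 libraries was 1517 TPM for FOSL1, which ranked 68 among the genes tested. JUNB followed at 151 TPM, JUN at 133 TPM, JUND at 80.3 TPM, FOSL2 at 74.1 TPM and ATF3 at 35.2 TPM. BATF3 at 1.19 TPM, FOSB at 0.907 TPM and FOS at 0.523 TPM were the low end of the order, and FOS ranked 15527. JUNB and JUN overlapped over the libraries, at 147 to 156 TPM and 123 to 148 TPM. JUND and FOSL2 also overlapped, at 77.6 to 81.8 TPM and 70.1 to 83.6 TPM. BATF3 and FOSB overlapped as well, and so did FOSB and FOS, whereas FOSL1 stood clear of all other members.

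The FOS family summed to 4.22 to 4.56 times the JUN family level per length in the 4 libraries. Within the FOS family, FOSL1 was 19.0 to 21.6 times FOSL2 and 2689 to 3326 times FOS. Within the JUN family, JUN was 0.84 to 0.989 times JUNB and 1.59 to 1.83 times JUND. With the longest transcript in place of the merged exons, the mean FOSL1 share was 76.8% against 76.1%. The ATF3 share depended more on this choice, at 1.57% to 1.89% with merged exons and 2.79% to 3.36% with the longest transcript. That of BATF3 moved likewise, from 0.0398% to 0.0828% with merged exons and from 0.0986% to 0.204% with the longest transcript.

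**Figure D2:**
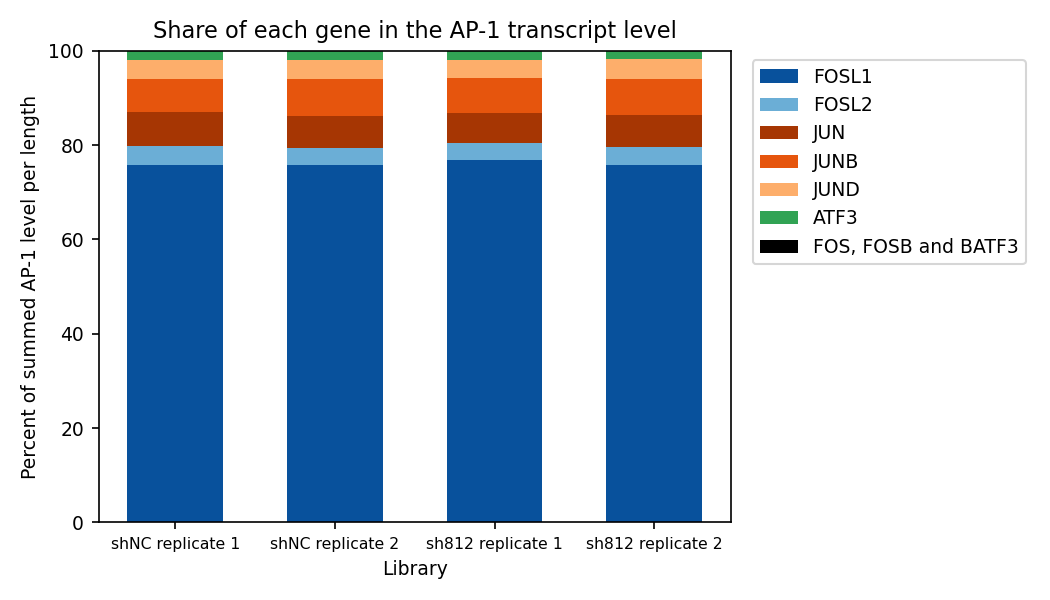
Share of each gene in the summed AP-1 level per length (percent), with a bar per library. FOSL1 fills 75.8% to 76.9% of every bar, and FOS, FOSB and BATF3 together, at most 0.15%, are too thin to see.

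Promoter sequences are shown as a description of the members, and a link between them and the levels was not tested. RefSeq start-site windows of GRCh38.p14, from 250 bases before to 50 after the start, matched 7 of the 9 members. FOSL1 and BATF3 had no match. Windows were searched on both strands for TGANTCA (the AP-1 site), TGACGTCA (the cAMP response element) and the serum response element core. TATAAA (the TATA box) and TGACATCA (an AP-1-like site described in the JUN promoter) were added after the members' promoters had been read. These motifs were found in 7.71%, 1.85%, 1.29%, 11.5% and 2.61% of 35116 promoters, in that order. The shares count a match anywhere in the window on either strand, and not at a given position. Overlapping motifs were counted separately. A match describes the letters of the window and not a site in use.

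TATAAA began at -33 in FOS, -30 in FOSB and -31 in JUNB, counted with the start site as 1 and the base before it as -1. The second ATF3 start, at its own window farther along the gene, held TATAAA at -230. FOS, FOSB and JUNB spanned the range from near the bottom to the upper part of the order of levels. Capitals mark the motif, and each sequence is printed 5′ to 3′ on the gene's strand. FOS lies at chr14:75278769-75278826, FOSB at chr19:45467940-45467997 and JUNB at chr19:12791429-12791486, all on the plus strand.
FOS: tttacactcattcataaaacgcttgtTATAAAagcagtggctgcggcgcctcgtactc
FOSB: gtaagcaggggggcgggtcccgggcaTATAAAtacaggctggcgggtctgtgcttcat
JUNB: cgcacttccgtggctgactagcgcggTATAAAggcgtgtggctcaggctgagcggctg

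JUN and the upstream ATF3 start both held TGACATCA, at -67 and -123. JUN lies at chr1:58784081-58784140 on the minus strand and ATF3 at chr1:212565258-212565317 on the plus strand. JUND held TGACGTCA at -200, at chr19:18281789-18281848 on the minus strand. FOSL2 held the only TGANTCA match, beginning at 5, just inside the transcript, at chr2:28392851-28392879 on the plus strand. The serum response element core matched no member's window. Sequence farther upstream than the windows was not searched, so whether a member has this element there was not tested.
JUN: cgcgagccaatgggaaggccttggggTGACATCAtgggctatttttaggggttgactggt
ATF3: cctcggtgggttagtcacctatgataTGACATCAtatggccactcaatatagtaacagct
JUND: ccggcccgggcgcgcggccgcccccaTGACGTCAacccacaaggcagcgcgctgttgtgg
FOSL2: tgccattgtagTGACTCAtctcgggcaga

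FOSL1 (ENSG00000175592, chromosome 11, 65892049 to 65900573, minus strand) was the most precisely measured member. It had 744 and 731 CPM in shNC and 773 and 740 CPM in sh812, so that the groups overlapped. Its log2 fold change was 0.04 ± 0.06 (SE, edgeR adjusted p = 0.749), and -0.01 with library size alone. The 95% interval of the log2 fold change was -0.08 to 0.15. FOSL2 (ENSG00000075426, chromosome 2, 28392448 to 28417312, plus strand) codes for FRA-2, a close relative of FRA-1. It had 148 and 133 CPM in shNC and 136 in both sh812 libraries, which lay between the control values. Its log2 fold change was -0.05 ± 0.06 (SE, edgeR adjusted p = 0.699), with a 95% interval from -12.0% to 5.96%.

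FOS and FOSB, the immediate early members of the family, were near the limit of detection. FOS (ENSG00000170345, chromosome 14, 75278774 to 75282230, plus strand) had 18 and 14 counts in shNC and 14 and 16 in sh812. Its log2 fold change of -0.12 ± 0.61 (SE, edgeR adjusted p = 0.937) had a 95% interval from -1.38 to 1.15, so even a change of about 2-fold was not detectable at this depth. FOSB (ENSG00000125740, chromosome 19, 45467995 to 45475179, plus strand) had 66 and 44 counts in shNC and 30 and 44 in sh812. In CPM, the shNC libraries were at 1.74 and 1.39 and the sh812 libraries at 0.855 and 1.23, so the groups did not overlap. The log2 fold change of FOSB was -0.59 ± 0.38 (SE, edgeR adjusted p = 0.361), with a 95% interval from -1.37 to 0.20. It was the widest difference among the 9 genes, and was -0.35 when sh812 replicate 1 was left out and -0.88 when sh812 replicate 2 was.

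The JUN family, which supplies the obligate partners of FOS proteins, lay within narrow limits. JUN (ENSG00000177606, chromosome 1, 58780788 to 58784327, minus strand) had 130 and 119 CPM in shNC and 118 and 125 CPM in sh812. These groups overlapped, with a log2 fold change of -0.04 ± 0.07 (SE, edgeR adjusted p = 0.771) and a 95% interval from -11.4% to 6.82%. JUNB (ENSG00000171223, chromosome 19, 12791496 to 12793315, plus strand), often a weaker activator than JUN, had 67.7 and 73.1 CPM in shNC and 72.3 and 73.0 CPM in sh812. Both sh812 values fell between the control values, with a log2 fold change of 0.05 ± 0.07 (SE, edgeR adjusted p = 0.75) and a 95% interval from -6.63% to 14.2%. The exons of JUNB share 259 bases with HOOK2 on the opposite strand, which had 527 to 703 counts per library.

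JUND (ENSG00000130522, chromosome 19, 18279760 to 18281622, minus strand) is the JUN member known for steady expression in resting cells. It had 37.4 and 38.7 CPM in shNC and 39.1 and 41.0 CPM in sh812, groups that did not overlap. Its log2 fold change was 0.07 ± 0.08 (SE, edgeR adjusted p = 0.642), with a 95% interval from -6.46% to 18.6%.

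ATF3, a stress-induced factor, had the smallest p-value of the 9 genes. ATF3 (ENSG00000162772, chromosome 1, 212565334 to 212620777, plus strand) had 39.8 and 38.7 CPM in shNC and 37.1 and 32.7 CPM in sh812. The sh812 libraries were the lower ones, without overlap, and differed from each other by more than the controls did. The log2 fold change was -0.17 (SE 0.09, unadjusted p = 0.0661, adjusted p = 0.239 in edgeR), with a 95% interval from -21.5% to 0.842%. Leaving out sh812 replicate 2 gave -0.08, and leaving out sh812 replicate 1 gave -0.26. BATF3 (ENSG00000123685, chromosome 1, 212686418 to 212699985, minus strand), best known from dendritic cells, had 33 and 24 counts in shNC and 42 and 20 in sh812. Both extremes were sh812 libraries, and the log2 fold change of 0.10 ± 0.49 (SE, edgeR adjusted p = 0.931) was -0.54 without sh812 replicate 1.

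**Figure D3:**
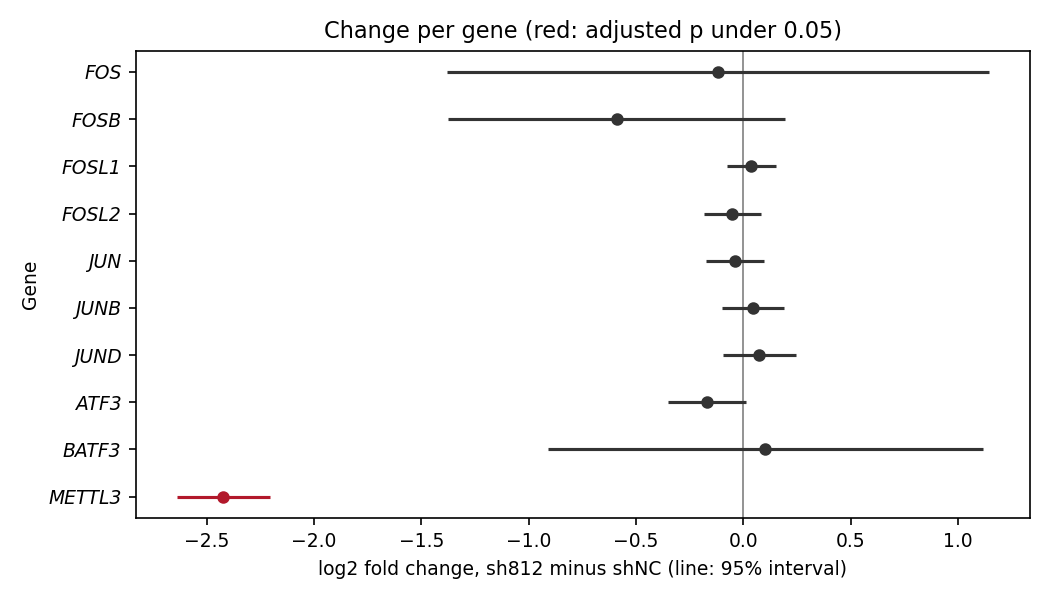
Log2 fold change of each AP-1 gene and METTL3 (sh812 minus shNC), with points for the estimates and lines for 95% intervals from the edgeR fit. Every AP-1 interval crosses 0, reaching 0.114 to either side of the estimate for FOSL1 and 1.26 for FOS, while that of METTL3 runs from -2.64 to -2.20.

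The intervals narrowed as CPM increased from gene to gene. The 95% interval reached 0.114 to 0.18 to either side of the estimate, on the log2 scale, for FOSL1, FOSL2, JUN, JUNB, JUND and ATF3, against a median of 0.244 for all genes tested. It reached 0.785 for FOSB, 1.01 for BATF3 and 1.26 for FOS. Called genes had a median absolute log2 fold change of 0.33, a size that the intervals of FOSL1, FOSL2, JUN, JUNB and JUND did not reach in either direction.

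The transcripts of the 9 genes differ in structure and in short motifs. JUN, JUNB and JUND are single-exon genes, as are 2.57% of 13250 protein-coding genes tested by the exon number of the longest transcript. GGACT, a core form of the sequence at which m6A is placed, occurred 7 times in FOSL2, 5 times in JUN and in FOSB, 3 times in FOS and in ATF3, 2 times in JUND, and once in JUNB and in BATF3. FOSL1 had 0, as did 7.57% of those 13250 genes. The density ran from 0 in FOSL1 and 0.55 per kilobase in JUNB to 1.48 per kilobase in ATF3, beside a median of 0.925, and the other 6 members were above that median, with JUN at 1.41. ATTTA, the core of AU-rich elements that mark short-lived messages, was densest in FOS at 2.32 per kilobase, beside a median of 1.06, and occurred once in FOSL1 at 0.599 per kilobase. These are counts of letters in GENCODE 29 transcripts, and no methylation or decay was measured here.

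Genes around AP-1 were followed in 6 lists of 148 different genes, written from general knowledge with earlier results of these data known. The closest relatives, other AP-1 and partner basic leucine zipper genes, were tested in 16 cases. Of these, 0 were called higher and 1 lower, or 6.25% beside 10.8% of all genes tested, with a median log2 fold change of -0.11 beside -0.01 for all genes tested. That gene was MAFG, a small MAF protein that pairs with other basic leucine zipper factors. MAFG had 68.5 and 67.4 CPM in shNC and 57.7 and 57.5 CPM in sh812, a log2 fold change of -0.24 ± 0.07 (SE, edgeR adjusted p = 0.0323). The call on MAFG was lost without either sh812 library, with DESeq2 and with the length trend removed, and its exons overlap those of SIRT7 on the same strand. BATF and MAF did not pass the low-count filter.

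Among 33 kinases and factors upstream of AP-1, 1 was called higher and 3 lower, or 12.1% beside 10.8% of all genes tested. ELK3, a ternary complex factor that acts with serum response factor, fell from 94.3 and 101 CPM to 74.1 and 69.3 CPM. The log2 fold change of ELK3 was -0.45 ± 0.07 (SE, edgeR adjusted p = 0.000127), and it was called in each of 13 alternatives. MEF2D, a factor that binds the JUN promoter, and RPS6KA5, the kinase MSK1, changed by -0.26 and -0.30 on the log2 scale (edgeR adjusted p 0.0176 and 0.0284). RPS6KA4, the related kinase MSK2, rose, with 141 and 151 CPM in shNC and 167 and 169 CPM in sh812 (log2 fold change 0.20, edgeR adjusted p = 0.0319). This list had fewer calls without either sh812 library and more without either shNC library, and so had all genes tested. RPS6KA4 itself lost its call without shNC replicate 1 and with library size alone, MEF2D with the length trend removed, and RPS6KA5 with that and with DESeq2.

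Of 15 AP-1 protein turnover and corepressor genes tested, 0 were called higher and 1 lower, or 6.67% beside 10.8% of all genes tested. Of 10 genes of AU-rich mRNA binding, 2 (20%) were called. HNRNPD was called higher and TIA1 lower, by 0.20 and -0.23 on the log2 scale (edgeR adjusted p 0.0251 and 0.031). The calls on HNRNPD and TIA1 were lost without either sh812 library, that on TIA1 also without shNC replicate 1. HNRNPD lost its call with library size alone, and TIA1 with the length trend removed and with DESeq2. The exons of TIA1 overlap those of C2orf42 on the same strand.

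Genes described elsewhere as AP-1 targets were called in both directions. Of 38 tested, 7 were called higher and 8 lower, or 39.5% beside 10.8% of all genes tested. With a mean CPM of at least 1 as the filter, the list had 7 higher and 9 lower. The share over all genes tested was then 15.0%. The list is no independent evidence, since the values of IL6 and TGFBI were known when it was written. Its median log2 fold change was -0.07. The list had fewer calls without either sh812 library and more without either shNC library, and so had all genes tested.

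IL6, an inflammatory cytokine, had 50.8 CPM in both shNC libraries and 21.8 and 18.0 CPM in sh812 (log2 fold change -1.35 ± 0.10 SE, edgeR adjusted p = 4.27e-10). TGFBI, a secreted matrix protein, had 74.7 and 82.0 CPM in shNC and 24.4 and 26.9 CPM in sh812 (log2 fold change -1.61 ± 0.08 SE, edgeR adjusted p = 9.36e-13). In both genes the sh812 libraries lay far below the controls.

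On the other side, PTGS2, the inducible cyclooxygenase, had 144 and 142 CPM in shNC and 205 and 247 CPM in sh812 (log2 fold change 0.66 ± 0.07 SE, edgeR adjusted p = 5.51e-07). AREG, an EGF receptor ligand, had 16.6 and 14.0 CPM in shNC and 27.3 and 24.2 CPM in sh812 (log2 fold change 0.75 ± 0.11 SE, edgeR adjusted p = 8.47e-05). MMP3, the matrix protease stromelysin-1, had 2.95 and 4.11 CPM in shNC and 7.63 and 8.19 CPM in sh812 (log2 fold change 1.17 ± 0.19 SE, edgeR adjusted p = 0.000162). These 5 targets kept their calls and directions in each of 13 alternatives. The library kit marks strand, but no source used here says whether counting used it. The antisense gene AC073072.1 overlaps the exons of IL6 and had 3 to 18 counts per library.

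A further 9 called targets fell outside the naming rule and are listed after their values were seen. TIMP1, an inhibitor of matrix proteases, the cytokine IL11, the keratin KRT18 and the collagen receptor subunit ITGA2 rose by 0.30 to 0.41 on the log2 scale. The exons of KRT18 share 525 bases with KRT8 on the opposite strand. LIF, a cytokine of the IL6 family, had 215 and 196 CPM in shNC and 126 and 132 CPM in sh812, a log2 fold change of -0.67 ± 0.06 (SE, edgeR adjusted p = 8.13e-08). The chemokine CXCL8, the cytokine IL1B, the laminin chain LAMB3 and the metallothionein MT2A had log2 fold changes between -0.39 and -0.24.

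**Figure D4:**
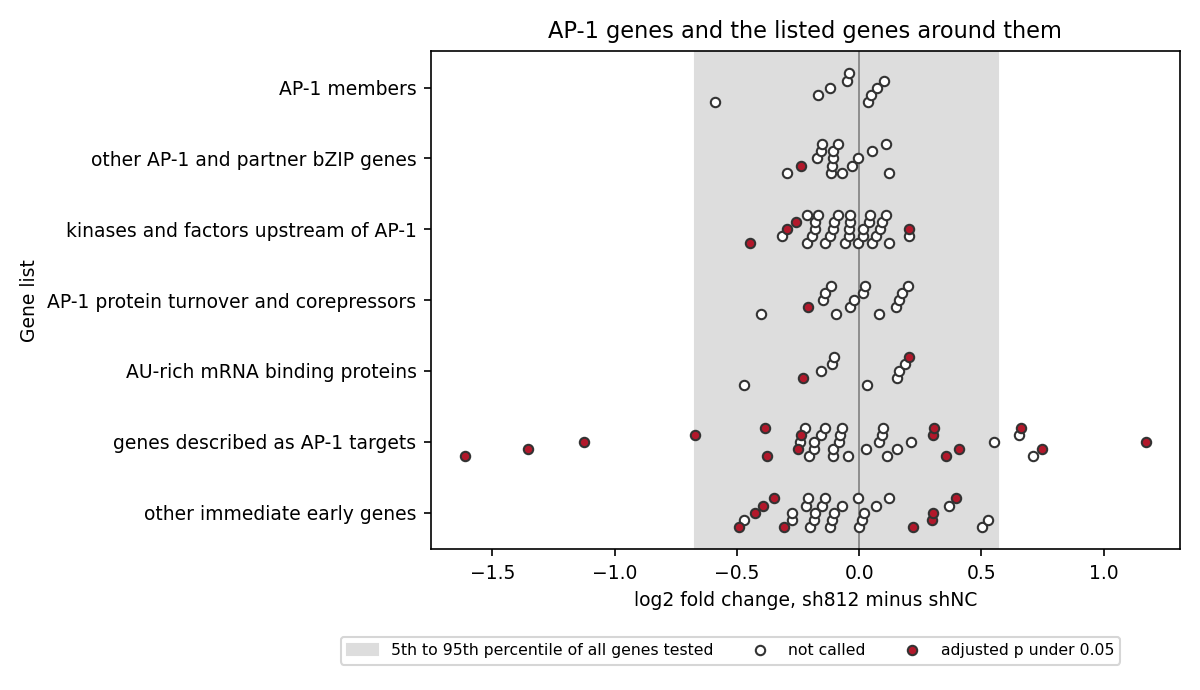
Log2 fold change (sh812 minus shNC) of each tested gene in the AP-1 family and in 6 gene lists, with red points for an adjusted p under 0.05 and a grey band from -0.673 to 0.566, the 5th to 95th percentile of all genes tested. The AP-1 row holds no red point, and the target row reaches from -1.61 to 1.17.

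Other immediate early genes also moved both ways. Of 32 tested, 4 were called higher and 5 lower, or 28.1% beside 10.8% of all genes tested. That background was 15.0% in a separate fit with a mean CPM of at least 1 as the filter, to which the 28.1% does not belong. MYC, a growth-promoting transcription factor, had 167 CPM in both shNC libraries and 216 and 223 CPM in sh812 (log2 fold change 0.40, edgeR adjusted p = 7.70e-05). DUSP6, a phosphatase that restrains ERK, and IER5 both changed by 0.30 on the log2 scale (edgeR adjusted p 0.00837 and 0.00932). CCN1, a matricellular protein, had 307 and 324 CPM in shNC and 242 and 227 CPM in sh812 (log2 fold change -0.43, edgeR adjusted p = 3.57e-05). The kinase SGK1 and CCN2, a relative of CCN1, changed by -0.49 and -0.39 on the log2 scale (edgeR adjusted p 0.00232 and 0.0059). Outside the naming rule, and named after their values were seen, IER2 was called higher at 0.22, PPP1R15A lower at -0.31 and CSRNP1 lower at -0.35.

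MYC and CCN1 kept their calls and directions in each of 13 alternatives. The immediate early list had fewer calls without either sh812 library and more without shNC replicate 2, and so had all genes tested. With library size alone the list had 3 higher and 8 lower, where 11.2% of all genes tested were called. DUSP6 lost its call without sh812 replicate 2, SGK1 and CCN2 without sh812 replicate 1, and IER5 without either. EGR1, another immediate early gene, was looked at after its values were seen. It had 10 and 2 counts in shNC and 12 and 2 in sh812. EGR1, EGR3 and EGR4 did not pass the low-count filter. FOS, FOSB and EGR1 were at or below 1.74 CPM in every library.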

How the data were processed

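Values are raw read counts per gene, deposited by the authors with 1 column per library. The submitters' processing notes name fastp, STAR 2.7.1a, featureCounts, DESeq2 and the build hg38, and the annotation release and strand setting are not given in the sources used here. Paired reads were 150 bp, per the labels' protocols. Here, sh812 was compared with shNC in edgeR 4.0.16 (filterByExpr, TMM, quasi-likelihood test, Benjamini-Hochberg adjustment over 16802 genes, prior count 0.125), with calls at an adjusted p under 0.05. CPM used TMM-scaled library sizes. SE and 95% intervals came from the F statistic. The script was tested on simulated data. Positions, exon lengths and transcripts came from GENCODE 29 (GRCh38) and promoters from RefSeq (GRCh38.p14). Named genes were METTL3, the 9 members and, per list, up to 3 called genes with the smallest p in each direction at a mean CPM of at least 1. Some listed genes that this rule names are not reported here. Genes most like a called member were to be named, and no member was called. Members and lists were chosen with earlier results of these data known. Replicates exceeded sampling noise (chi-square per gene 8.43 and 4.51). Alternatives used R 4.3.3, DESeq2 1.42.0 and limma 3.58.1, other scalings and filters, length and GC trends, a replicate block and each library left out.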

Additional observations from a re-analysis of the deposited data

How the results depend on the processing

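No AP-1 member was called in any of the 13 alternatives with a test, where the lowest adjusted p of a member ran from 0.111 with the length and GC trend removed to 0.418 with DESeq2. DESeq2 gave 3 members no adjusted p, and a mean CPM of at least 1 left 7 to test. The sign of small differences moved. Removing the length and GC trend gave log2 fold changes of -0.0168 for BATF3, -0.0307 for FOSL1, 0.0403 for FOSL2, -0.0173 for JUNB and -0.00201 for JUND. Removing only the length trend gave -0.0106, -0.0281, 0.0394 and -0.00626 for the first 4. It was -0.00825 for FOSL1 with library size alone and -0.00244 for BATF3 with limma-voom. Leaving out a library gave -0.542 to 0.548 (BATF3), -0.122 to 0.0335 (FOSL2), -0.0952 to 0.0256 (JUN, also 0.00103 without sh812 replicate 1) and -0.00824 to 0.107 (JUNB). The cause was not tested. Over all genes, library size alone called 561 higher (29.7% of calls, against 50.1%), and DESeq2 called 585 lower. Leaving out a library gave 261 to 1703 higher and 326 to 1549 lower. Over the 6 lists together, 13 genes were called higher and 19 lower, 30 lower with library size alone, and 4 to 20 higher and 9 to 31 lower without a library. The lists hold 148 different genes before the low-count filter. Over all genes tested, 10.8% were called in the main fit and 11.2% with library size alone. Without a library, the calls over all genes moved too, so the list counts cannot be read apart from that shift. Calls without a library, and the longest transcript as length, were chosen after seeing the data. The former assume that a lone library varies like the other group. The replicate block called 1003 genes higher and 998 lower and 0 members. Across genes, deviations from the group means correlated at 0.0164 between libraries of equal number, and the labels tie no number to a shared culture or day.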
